A study of Homo sapiens with 3 samples.

Results

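The genes described here encode 10 proteins by which a tumour cell is recognised or spared by T cells, macrophages and natural killer (NK) cells. They were chosen by name as checkpoint ligands and stress ligands of tumour cells: CD274, PDCD1LG2, CD276, CD47, MICA, MICB, ULBP2, PVR, NECTIN2 and LGALS9. The rule uses no measured value, but the choice was made with earlier results of these data known. All 10 were found by Entrez identifier among the 18331 genes listed in any library. Messenger RNA had been sequenced from the PC-3 line of human prostate cancer, which grows without androgen, 7 days after lentiviral delivery of a short hairpin RNA (shRNA). There were 2 libraries labelled KMT2D shRNA, numbered 1 and 2 and tagged as KMT2D deficient, and 1 library labelled control shRNA and tagged as KMT2D normal. Every library, the control included, had received an shRNA lentivirus, and none was from uninfected cells. The labels do not say whether numbers 1 and 2 stand for different hairpins or for separate cultures. The p-values thus rest only on the spread between the 2 labelled libraries, which may be technical. For each gene this spread was estimated mostly from all genes together. With 1 control library, whatever was particular to that culture or library cannot be told apart from the effect of the hairpin.

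Immune checkpoints are receptors on leukocytes that, once bound by a ligand on another cell, restrain the leukocyte. PD-1 on T cells is bound by the products of CD274 (PD-L1) and PDCD1LG2 (PD-L2), SIRP-alpha on macrophages by CD47, and TIGIT on T and NK cells by PVR and NECTIN2, which also bind the activating receptor DNAM-1. MICA, MICB and ULBP2 are stress-induced ligands of NKG2D, an activating receptor of NK cells and cytotoxic T cells, and loss of such ligands is a known route of escape from NK cells. CD274 and LGALS9, which encodes the secreted lectin galectin-9, are textbook interferon-induced genes.

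The targeted gene, KMT2D, which encodes a histone methyltransferase of enhancers, had 107 and 138 CPM (counts scaled by TMM to a common library size) in the libraries labelled KMT2D shRNA and 100.1 CPM in the control, from 562, 699 and 551 counts. Neither labelled library thus had less KMT2D RNA than the control (log2 fold change 0.29, SE 0.18, edgeR adjusted p = 0.227), and directions below describe these libraries as labelled. Fold change rose with transcript length over all genes, and once this trend was taken out through offsets KMT2D, a very long transcript, was at -0.71 (edgeR adjusted p = 0.00685). At its 19432 bases the fitted trend was 0.999 in log2, so the negative sign comes from the offset and not from the counts. Library totals lay between 5123794 and 5559449 counts. Of 9 epithelial and PC-3 markers, 9 had counts, and 4 of these were called lower in the labelled libraries and 0 higher. Over all tested genes 14.5% were called lower and 16.5% higher. The summed level of the 9 markers was 2754, 2965 and 3374 CPM in library 1, library 2 and the control. The 4 called lower were KRT7 (-1.60 in log2), KRT18 (-0.88), KRT19 (-0.75) and KRT8 (-0.67). Of these, KRT19 and KRT8 did not pass without the length trend, and the part of the 4 in the results was not tested. Of 18 leukocyte markers, 9 had no count in any library, among them CD3D, CD3E and CD163, and 15 stayed under 1 CPM in every library. The rest were CD68, LYZ and PTPRC, and the summed leukocyte marker level of 71.7, 79.6 and 185 CPM in library 1, library 2 and the control was mostly CD68 (45.9, 55.8 and 149 CPM), a lysosomal gene that other cells also express. CD163, a defining macrophage marker, was at 0, but LYZ, also a myeloid gene, was at 22.6, 19.7 and 32.9 CPM. Of the 3 leukocyte markers tested, 2 were called lower and 0 higher, beside 14.5% and 16.5% of all tested genes. The 2 called lower were CD68 (-1.56 in log2, edgeR adjusted p = 6e-10) and LYZ (-0.64, edgeR adjusted p = 0.0189). The call of LYZ did not hold without the length trend (edgeR adjusted p = 0.296). The part of CD68 and LYZ in the results was not tested.

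Of the 10 ligand genes, 4 stood lower in the labelled libraries at an adjusted p under 0.05 in the quasi-likelihood test of edgeR, and 0 were higher; 14.5% of the 14016 genes tested were called lower and 16.5% higher. Those 4 were LGALS9, NECTIN2, CD274 and MICB. The other 6, PDCD1LG2, CD276, CD47, MICA, ULBP2 and PVR, did not pass. All 10 passed the filter on low counts. The median log2 fold change of the 10 was -0.47, beside -0.01 over all genes tested. Both labelled libraries stood below the control for 8 of the 10 genes and above it for 1, ULBP2, against 42.8% and 41.5% of all tested genes, and CD276 had the control between them. Of the 4 calls, that of NECTIN2 passed in 9 of the 11 fits run and that of LGALS9 in 8 of 10. CD274 passed in only 3 of 11 and MICB in 2 of 12, which include 1 fit to the summed counts of MICA and MICB. In RNA from whole cultures, fewer cells with a transcript and less of it per cell cannot be told apart.

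**Figure D1:**
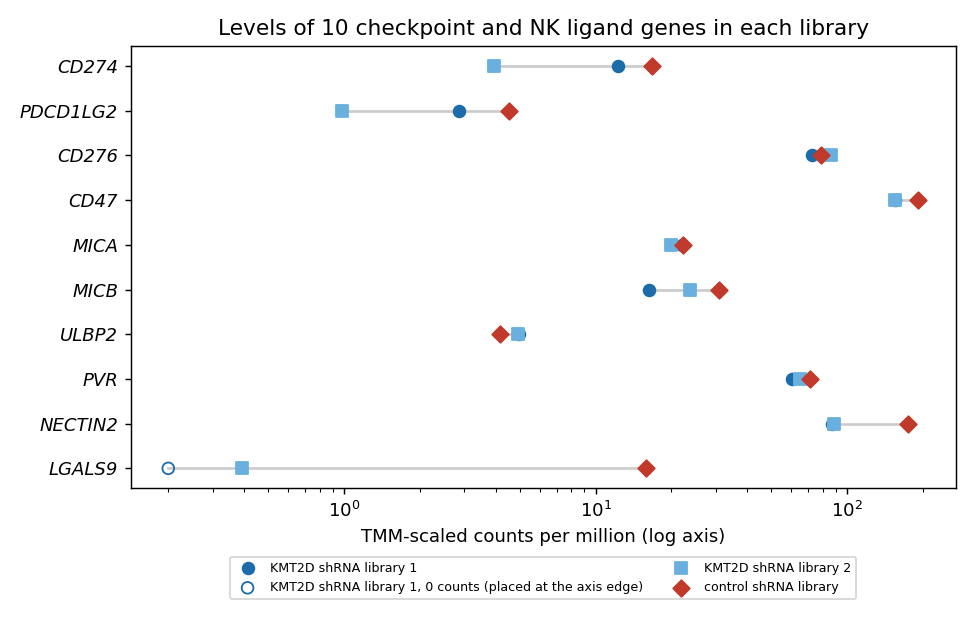
Levels of the 10 ligand genes in the 3 libraries, in TMM-scaled CPM on a log axis; each symbol is 1 library and grey lines join the libraries of a gene. LGALS9 has its control library at 15.8 CPM and library 1 at 0 counts, drawn as an open circle at the axis edge, while NECTIN2 has both labelled libraries near 88 CPM and the control at 174 CPM.

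To compare genes with each other, the deposited FPKM was used, a level scaled by transcript length and library total. In the control the order of levels was NECTIN2 at 72.4 FPKM, CD47 at 35.4, CD276 at 25.0, MICA at 14.4, MICB at 12.2, PVR at 12.02, LGALS9 at 9.52, CD274 at 4.61, ULBP2 at 3.01 and PDCD1LG2 at 1.85 FPKM. In the libraries labelled KMT2D shRNA NECTIN2 was again first, at 37.1 ± 0.318 FPKM (SD, n = 2), followed by CD47 at 29.2 ± 0.509 and CD276 at 23.2 ± 2.51 FPKM. MICA at 14.0 ± 1.42 and PVR at 12.3 ± 1.59 FPKM were neighbours whose difference was only slightly above the SD of either. LGALS9, above CD274 in the control, was last at 0.120 ± 0.170 FPKM. PC-3 cells thus carried mainly NECTIN2, CD47 and CD276 RNA of these ligands in all 3 libraries, and the PD-1 ligands were among the low ones.

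The PD-1 ligands were lower in library 2 than in either other library. CD274 had 64 counts in library 1, 20 in library 2 and 92 in the control, or 12.2, 3.94 and 16.7 CPM. Library 1 was close to the control, at a ratio of 0.732 whose 95% interval for counting error, 0.524 to 1.02, includes 1, and library 2 was low, at 0.236 (0.138 to 0.386). CD274 averaged 8.09 ± 5.86 CPM (SD, n = 2) in the labelled libraries. By edgeR its log2 fold change was -1.04 with an SE of 0.34 (adjusted p = 0.0154). This call rests on library 2: on the log2 CPM scale the difference to the control was -0.44 with library 1 alone and -1.98 with library 2 alone, and the call was lost with no filter on low counts (edgeR adjusted p = 0.27) and with DESeq2 (adjusted p = 0.419).

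PDCD1LG2, the neighbouring gene of CD274 on chromosome 9, had 15, 5 and 25 counts in library 1, library 2 and the control, or 2.87, 0.985 and 4.54 CPM. It followed the same order of libraries, and its ratios to the control were 0.631 (0.309 to 1.25) and 0.217 (0.0649 to 0.577). The log2 fold change of -1.22 (SE 0.59) missed the threshold (edgeR adjusted p = 0.111), with a 95% interval of -2.37 to -0.07. CD274 counts were 4.27, 4 and 3.68 times those of PDCD1LG2 in library 1, library 2 and the control. These ratios have no interval and rest on as few as 5 PDCD1LG2 counts. They thus cannot show that the balance of the genes was alike. Between the labelled libraries, library 2 held 0.322 times the CD274 of library 1 (0.185 to 0.539) and 0.344 times the PDCD1LG2 (0.0977 to 0.995). Over 2-fold differences between the labelled libraries were seen in 3 of the 10 genes, CD274, PDCD1LG2 and LGALS9, beside 2.58% of all tested genes, and that of LGALS9 rests on 0 against 2 counts.

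The 250 bases before the gene start of CD274 are shown because they hold sequence letters of interferon-responsive elements, at chr9:5450292-5450541 on the plus strand of GRCh38.p14, from RefSeq, whose promoter table matched 9 of the 10 genes. The promoter is printed 5′ to 3′ with matches to the interferon-stimulated response element (ISRE, GAAANNGAAA) and the interferon-gamma activated sequence (GAS, TTCNNNGAA) in capitals, searched on both strands.
CD274: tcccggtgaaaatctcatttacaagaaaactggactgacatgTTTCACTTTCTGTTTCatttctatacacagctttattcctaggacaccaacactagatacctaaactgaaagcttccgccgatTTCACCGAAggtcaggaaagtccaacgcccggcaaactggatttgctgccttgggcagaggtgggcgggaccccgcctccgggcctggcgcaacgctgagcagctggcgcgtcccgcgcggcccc
The window holds 2 overlapping ISRE matches, TTTCACTTTC and TTTCTGTTTC, which begin 208 and 202 bases before the start, and 1 GAS match, TTCACCGAA, which begins 125 bases before it. An ISRE match is found in 3.02% and a GAS match in 6.57% of the 35116 RefSeq promoter windows of that length. CD274 was the only one of the 9 matched ligand genes with either match in this window. IRF1, an activator known to bind the ISRE letters, was at 39.0, 51.6 and 152 CPM in library 1, library 2 and the control. Its part in the level of CD274 was not tested. A match of letters is a description and does not show a site in use.

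LGALS9 showed the largest difference of the 10 genes. It had 0 counts in library 1, 2 in library 2 and 87 in the control, or 0, 0.394 and 15.8 CPM, and neither labelled library came near the control. With the floor of 3 counts per library in place of 0, LGALS9 was at least 27.6-fold lower in library 1 than in the control, and the exact 95% interval of the ratio itself, which adds the counting error of the control, reached up to 0.0456. Library 2, whose 2 counts are also under that floor, had a ratio of 0.0249 (0.00297 to 0.0928). The fitted log2 fold change was -6.18 (SE 0.60, edgeR adjusted p = 1.62e-11), a size that depends on the prior count because the labelled libraries are near 0. In limma on FPKM it did not pass with a pseudocount of 0.1 (adjusted p = 0.0912) or with no filter (adjusted p = 0.165). LGALS9B and LGALS9C, copies near-identical to LGALS9 in parts, were listed in no library. They share 3.62% and 6.95% of the distinct 50-base windows of LGALS9's GENCODE transcripts, so the split of reads between LGALS9 and these copies is uncertain within those windows.

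The LGALS9 promoter is shown as that of the gene with the largest difference, at chr17:27630938-27631187 on the plus strand of GRCh38.p14 (RefSeq), and it holds no match to the ISRE, GAS, NF-kB or AP-1 (TGANTCA) letters, hence no capitals.
LGALS9: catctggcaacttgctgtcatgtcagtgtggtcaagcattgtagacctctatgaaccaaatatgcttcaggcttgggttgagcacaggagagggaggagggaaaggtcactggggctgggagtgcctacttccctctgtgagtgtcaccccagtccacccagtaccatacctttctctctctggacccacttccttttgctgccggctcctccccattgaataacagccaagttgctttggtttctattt
It also has no GC box (GGGCGG), which 42.6% of promoter windows and 7 of the 9 matched ligand genes hold. No match says only that these letters are not in this window.

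Of the ligands of TIGIT and DNAM-1, NECTIN2 was called lower and PVR was not, and the difference between these genes was not tested. NECTIN2, also called CD112, had 456 counts in library 1, 448 in library 2 and 957 in the control, or 87.2, 88.3 and 174 CPM. The labelled libraries were near one another and both were about 0.5 times the control, at ratios of 0.501 (0.448 to 0.561) and 0.508 (0.453 to 0.569). NECTIN2 fell from 174 to 87.7 ± 0.799 CPM (SD, n = 2). Its log2 fold change by edgeR was -0.99 with an SE of 0.17 (adjusted p = 9.24e-06), and -0.86 without the length trend (edgeR adjusted p = 0.000616). The call was lost in limma on FPKM with a pseudocount of 0.1 (adjusted p = 0.0971) or with no filter (adjusted p = 0.165).

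PVR, also called CD155 and the higher-affinity ligand of TIGIT, had 317, 331 and 391 counts in library 1, library 2 and the control, or 60.6, 65.2 and 71.0 CPM. Both labelled libraries lay slightly below the control, and the log2 fold change was -0.18 with an SE of 0.18 (edgeR adjusted p = 0.486, 95% interval -0.52 to 0.17). Without the length trend PVR was at -0.49 (edgeR adjusted p = 0.0501), and on FPKM, which takes the length of each library, it was at 0.03. The length the authors deposited for PVR, a gene with 4 listed transcripts, was 5438 bases in library 1, 4764 in library 2 and 5775 in the control, so these libraries differ in the transcripts to which PVR reads were assigned. NECTIN2 stood at 6.02 times the FPKM of PVR in the control and at 3.34 and 2.74 times in the labelled libraries.

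The NECTIN2 promoter is shown for comparison with CD274, at chr19:44846047-44846296 on the plus strand of GRCh38.p14 (RefSeq). It holds none of the ISRE, GAS, NF-kB or AP-1 letters and is printed without capitals.
NECTIN2: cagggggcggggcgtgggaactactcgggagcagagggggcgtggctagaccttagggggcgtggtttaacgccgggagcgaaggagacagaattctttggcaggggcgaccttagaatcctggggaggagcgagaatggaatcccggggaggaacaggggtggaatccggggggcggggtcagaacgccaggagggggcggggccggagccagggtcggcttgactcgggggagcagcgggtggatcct
It holds 3 GC boxes, with a GC content of 67.6%, beside 54.8% for the CD274 window and 51.6% for that of LGALS9.

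**Figure D2:**
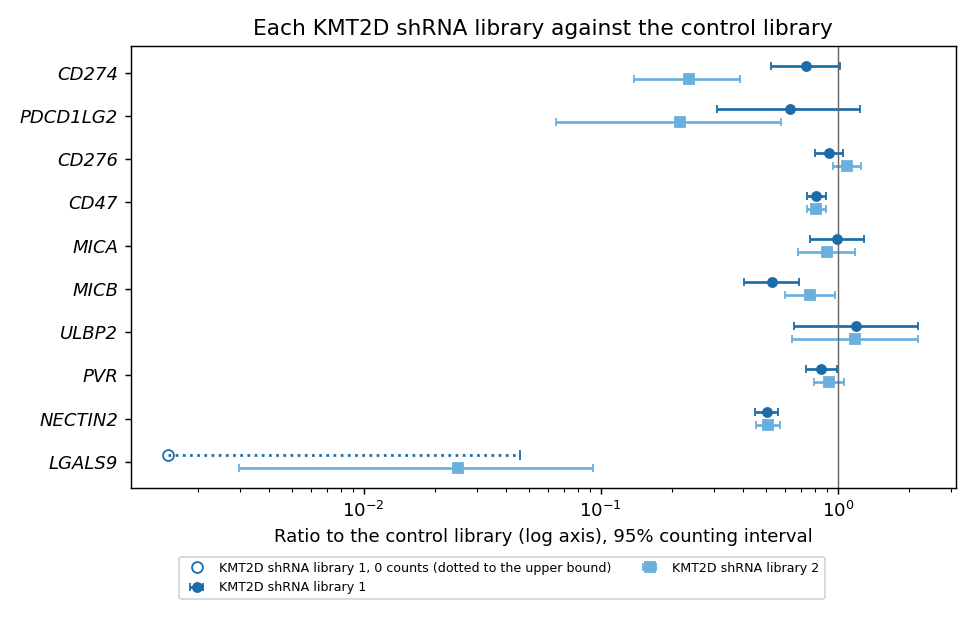
Ratio of each labelled library to the control for the 10 ligand genes, on a log axis, with 95% intervals for counting error only; circles are library 1 and squares library 2, and the open circle of LGALS9 marks 0 counts with a dotted line to its upper bound. NECTIN2 sits at 0.501 and 0.508 with short intervals, while CD274 sits at 0.732 in library 1 and 0.236 in library 2.

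Among the NKG2D ligands MICB was lower and MICA and ULBP2 did not pass. MICB had 85 counts in library 1, 120 in library 2 and 170 in the control, or 16.2, 23.6 and 30.9 CPM. Both labelled libraries were below the control, library 1 by more (ratios of 0.526, 0.401 to 0.687, and 0.766, 0.601 to 0.973). The log2 fold change was -0.63 (SE 0.22, edgeR adjusted p = 0.0267), or -0.91 with library 1 alone and -0.38 with library 2 alone. The call did not hold without the length trend (-0.53, edgeR adjusted p = 0.111).

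MICA, its neighbour in the HLA region of chromosome 6, had 115, 101 and 122 counts, or 21.98, 19.9 and 22.2 CPM, in library 1, library 2 and the control. The libraries lay close together, with a log2 fold change by edgeR of -0.08 (SE 0.22, adjusted p = 0.823, 95% interval -0.52 to 0.36), and with the length trend removed the sign turned to 0.23 (edgeR adjusted p = 0.524). MICA and MICB are near-identical in parts: of the distinct 50-base windows of MICB's transcripts 1.61% also occur in MICA, and both genes had counts that were not whole. Their split is therefore uncertain within those windows. Summed they had 200, 221 and 292 counts, and the log2 fold change of this sum, -0.38 (SE 0.19), did not pass (edgeR adjusted p = 0.128, an alternative chosen after the data were seen). The sum also carries the MICA counts, so it cannot decide the call of MICB. HLA-B, the next gene to MICA, stood at 92.3, 81.4 and 710.4 CPM, a difference of -3.03 in log2 with an SE of 0.16 (edgeR adjusted p = 2.16e-20).

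The promoters of MICA and MICB are shown because these genes differ in call but are near-identical in parts, at chr6:31403345-31403594 and chr6:31497895-31498144 on the plus strand of GRCh38.p14 (RefSeq). Neither holds ISRE, GAS, NF-kB or AP-1 letters, and each holds 1 GC box.
MICA: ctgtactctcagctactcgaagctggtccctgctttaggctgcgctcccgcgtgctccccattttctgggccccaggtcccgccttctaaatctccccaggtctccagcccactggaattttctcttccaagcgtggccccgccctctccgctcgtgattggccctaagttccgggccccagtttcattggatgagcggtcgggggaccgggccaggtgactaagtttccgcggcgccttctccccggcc
MICB: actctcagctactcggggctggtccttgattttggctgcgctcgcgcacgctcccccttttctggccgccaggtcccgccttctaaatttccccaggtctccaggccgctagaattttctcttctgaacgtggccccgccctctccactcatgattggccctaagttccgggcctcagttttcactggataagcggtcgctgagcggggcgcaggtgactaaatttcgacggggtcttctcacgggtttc

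ULBP2, which is anchored to the membrane by a lipid, had 26, 25 and 23 counts in library 1, library 2 and the control, or 4.97, 4.93 and 4.18 CPM. These levels did not differ by the test (log2 fold change 0.24, SE 0.45, edgeR adjusted p = 0.726), and the 95% interval of -0.64 to 1.13 leaves room for a change of either sign. ULBP2 is uncertain because RAET1L holds 29.4% and RAET1G 11.6% of its distinct 50-base transcript windows. RAET1L had 1, 0 and 14 counts and RAET1G 5, 6 and 4, and the sum of the 3 genes was 32, 31 and 41 counts, at which the sign turned to -0.28 (SE 0.37, edgeR adjusted p = 0.599, also chosen after the data were seen). Of the further ULBP genes, ULBP1 fell from 15.6 CPM to 6.88 and 6.70 CPM (log2 fold change -1.20, SE 0.30, edgeR adjusted p = 0.00207), and ULBP3 had 22, 21 and 11 counts and did not pass (1.05, SE 0.58, edgeR adjusted p = 0.166).

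CD47, the signal that spares a cell from macrophages, had 813 counts in library 1, 789 in library 2 and 1053 in the control, or 155, 155 and 191 CPM. The labelled libraries were nearly equal and both lay below the control (ratios of 0.812, 0.741 to 0.891, and 0.813, 0.740 to 0.892). The log2 fold change of -0.30 (SE 0.17) missed the threshold (edgeR adjusted p = 0.178). CD47 has a long transcript, of 5295 bases on average, and genes of that length were 0.32 higher on the log2 scale along the trend over all tested genes. With the trend removed CD47 was at -0.61 and passed (edgeR adjusted p = 0.0107), and with the GC trend removed as well it was at -0.73 (edgeR adjusted p = 0.0069). In the fit without the length trend alone, 8.43% of tested genes were called higher and 9.01% lower, and CD274, CD47, NECTIN2 and LGALS9 were the ligand genes called. In the fit without either trend 3 were called, CD47, NECTIN2 and LGALS9, and CD274 was not (edgeR adjusted p = 0.0698).

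CD276, the B7 family member B7-H3, had 379 counts in library 1, 438 in library 2 and 434 in the control, or 72.4, 86.3 and 78.8 CPM. The control lay between the labelled libraries, with a log2 fold change by edgeR of 0.01 (SE 0.18, adjusted p = 0.976, 95% interval -0.34 to 0.36). The sign turned in some settings, to -0.05 with the length trend removed and to -0.11 on FPKM, none of which passed. The length deposited for CD276, which has 2 listed transcripts, was 3419 and 3411 bases in the labelled libraries and 3100 in the control. For CD276 as for PVR, a difference in the use of transcripts was not tested.

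**Figure D3:**
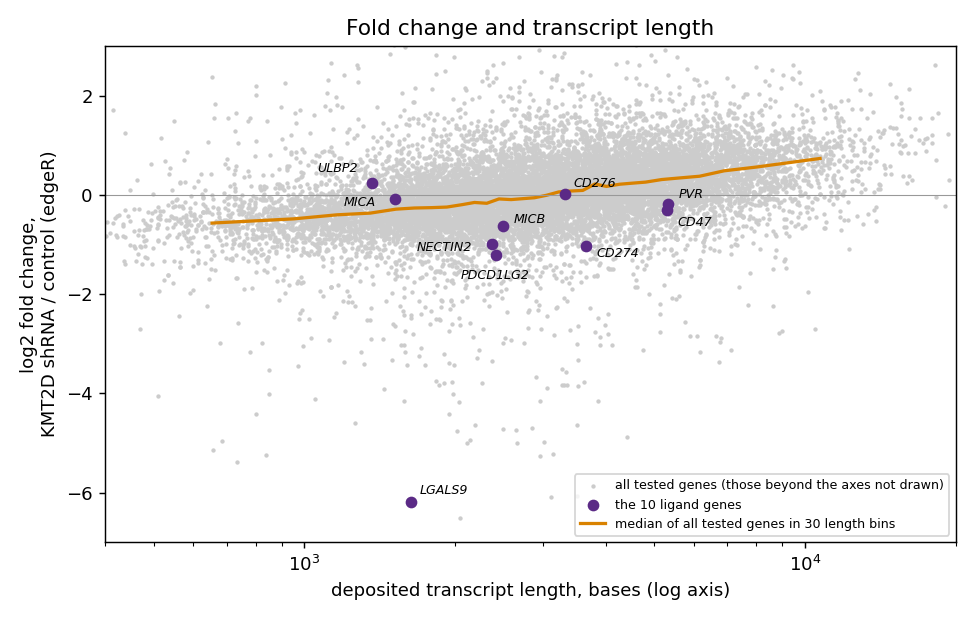
Log2 fold change from edgeR (vertical axis) against the deposited transcript length in bases (log axis) for all tested genes (grey) and the 10 ligand genes (purple), with the median of all tested genes by length as an orange line. CD47 and PVR, of 5295 and 5326 bases, lie under the line where it is above 0, and LGALS9 lies far below it at -6.18.

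**Figure D4:**
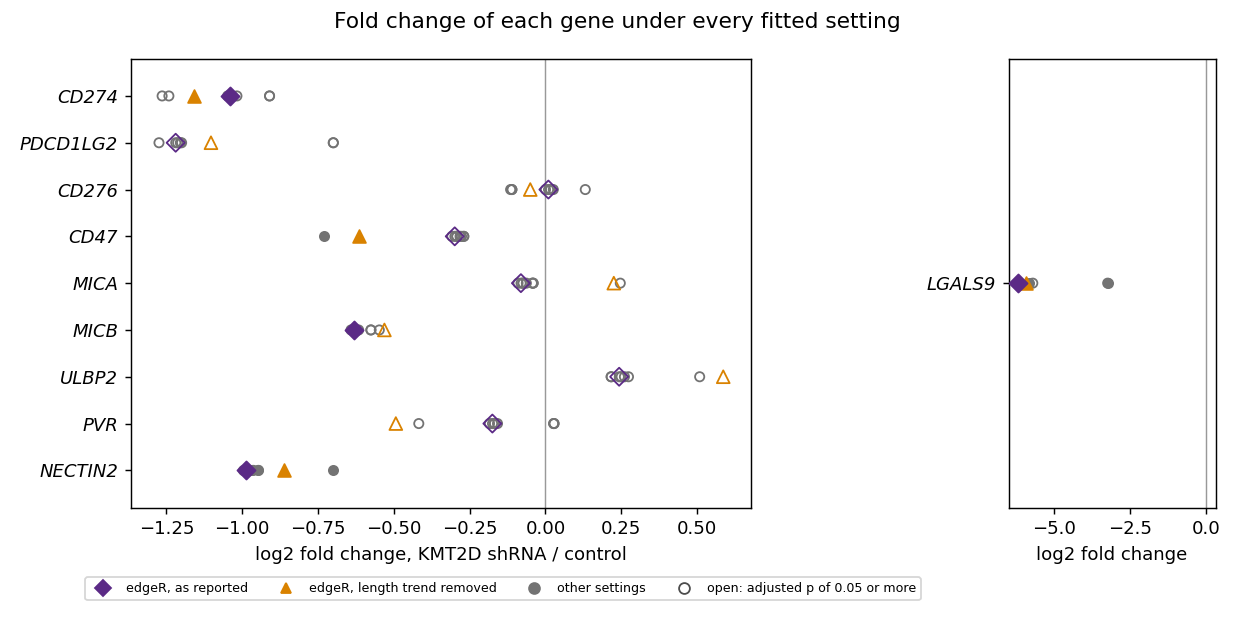
Log2 fold change of each ligand gene under every fitted setting, with filled symbols where the adjusted p was under 0.05; diamonds are the reported fit, triangles the fit with the length trend removed and circles the rest. NECTIN2 stays between -0.996 and -0.70, whereas MICA, CD276 and PVR have settings on either side of 0.

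Other genes of the same recognition systems were read from lists, and each count below stands beside the 16.5% higher and 14.5% lower of all tested genes. Of 20 tested genes on the list of further checkpoint ligands, 8 were lower and 3 higher. Their median log2 fold change was -0.39, again beside -0.01 over all genes. The list also held IDO1 and NT5E, which encode enzymes and not ligands, so these values are not of ligands alone. IDO1, which depletes tryptophan and so restrains T cells, was at 8.22 and 4.53 CPM in the labelled libraries and at 67.0 CPM in the control (log2 fold change -3.38, SE 0.24, edgeR adjusted p = 2.15e-16). VSIR, the checkpoint protein VISTA, fell by 1.49 on the log2 scale (edgeR adjusted p = 0.000571). The butyrophilin genes BTN3A2 and BTN3A3, whose family takes part in the response of gamma-delta T cells to phosphoantigens, fell by 1.15 and 1.03.

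The 3 that rose included the largest rise on the list, HHLA2, a B7 family gene that is separated from CD47 on chromosome 3 by IFT57 alone among protein-coding genes, which was at 24.8 CPM in library 1, 50.5 in library 2 and 5.45 in the control (log2 fold change 2.78, SE 0.32, edgeR adjusted p = 2.46e-09). Both labelled libraries were above the control, library 2 by more. NECTIN1 and NECTIN3, adhesion relatives of NECTIN2, rose by 0.94 and 0.64, opposite in sign to NECTIN2. The call of NECTIN3 did not hold without the length trend (0.44, edgeR adjusted p = 0.148).

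Of 17 tested genes on the list of further NK ligands, which also held the receptor gene CRTAM, 7 were lower and 0 higher (median -0.41). HLA-E, which binds the inhibitory receptor NKG2A, was at 211 and 231 CPM against 681 in the control (log2 fold change -1.62, SE 0.16, edgeR adjusted p = 1.93e-11). HLA-F fell by 2.91 and CLEC2B, which encodes the ligand AICL of the NK receptor NKp80, by 1.38. Thus genes for ligands of activating receptors (MICB, ULBP1, CLEC2B) and of inhibitory ones (HLA-E, CD274) were both among those called lower.

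Of 17 tested genes for regulators of the ligands at the surface, 6 were higher and 3 lower (median -0.06), and the share lower is near that of all tested genes. CMTM4, a membrane protein that protects PD-L1 from degradation, rose from 8.54 to 28.1 and 20.3 CPM (log2 fold change 1.502, SE 0.27, edgeR adjusted p = 2.79e-05). HIP1R, which directs PD-L1 to lysosomes, fell by 1.02, and QPCTL, whose enzyme modifies CD47 so that SIRP-alpha can bind, fell by 0.71 (edgeR adjusted p = 0.00574, and 0.0514 without the length trend). USP22, GSK3B and STT3B, which encode a deubiquitinase, a kinase and an oligosaccharyltransferase subunit, rose by 1.02, 0.97 and 0.77. STUB1, a ubiquitin ligase, fell by 0.50, and its call did not hold without the length trend (-0.22, edgeR adjusted p = 0.392).

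Of 17 genes on the list for the interferon gamma axis 6 were lower and 2 higher (median -0.30). This list also held HIF1A, MYC, NFKB1 and RELA, which are not core genes of that axis, so these values are not of the axis alone. STAT2 fell by 1.86, IRF1 by 1.75 and IRF9 by 1.68, and JAK1 and HIF1A rose by 0.63 and 0.54, calls that did not hold without the length trend (edgeR adjusted p = 0.186 and 0.154). Of 17 genes of HLA class I and peptide loading 12 were lower and 1 higher (median -1.46). PSMB9, an immunoproteasome subunit, fell by 4.12, NLRC5, the transactivator of class I genes, by 3.36 and HLA-C by 2.75. The chaperone gene CANX rose by 0.53, which did not hold without the length trend (edgeR adjusted p = 0.311). Except for LGALS9, no ligand gene's log2 fold change was as far from 0 as the median of that list. Leukocyte receptors of the ligands ranged from no counts to high levels in these cells. The list of 12 also held CD28, CTLA4 and HCST, which encode no receptor of the 10 ligands. Of the 12, 7 stayed under 1 CPM in every library, CD28, CTLA4 and HCST among them. PDCD1, TIGIT and CTLA4 had no counts. SIRPA, at 150.4, 172 and 151 CPM in library 1, library 2 and the control, and CD44, at 396, 452 and 342 CPM, were the only ones above 5 CPM. Of the 5 tested 1 was higher, PVRIG, whose product is an inhibitory receptor for NECTIN2, at 12, 19 and 2 counts (log2 fold change 2.97, SE 0.97, edgeR adjusted p = 0.0166); it was named after its values were seen.

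**Figure D5:**
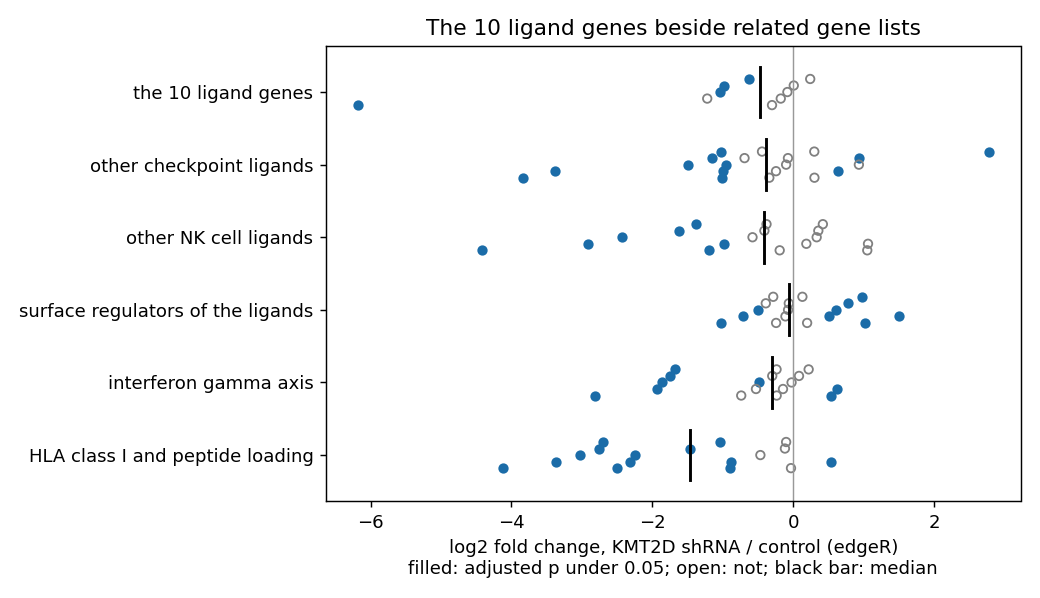
Log2 fold changes from edgeR of the tested genes on each list (1 circle per gene, filled where the adjusted p was under 0.05, black bar at the median). The ligand genes have a median of -0.47 and the genes of HLA class I and peptide loading one of -1.46.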

How the data were processed

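The authors deposited, per the file headers, 1 table per library with Entrez identifier, RefSeq transcripts, length in bases, expected count (estimated reads per gene, not normalized) and FPKM (scaled by length and library total). HISAT, Bowtie2 and the build hg19 are named in the submitters' processing notes; for their roles and versions and for the counting tool the sources used here give nothing. No strand-marking step is described, so reads of overlapping genes cannot be separated. A gene not listed in a library was taken as 0. Symbols came from RefSeq (GRCh38.p14, names only): 18214 identifiers matched directly, 28 by transcript and 89 not. Members and lists were chosen with earlier results of these data known.

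Counts were rounded and tested with edgeR 4.0.16 in R 4.3.3 (default filter by group, TMM, quasi-likelihood F test on group, 1 residual degree of freedom, Benjamini-Hochberg adjusted over 14016 genes, threshold 0.05). The control, without replicate, was assumed to vary like the labelled libraries. The spread of each gene was drawn towards that of all genes, with 45.7 prior beside 1 residual degree of freedom. SE was derived from F and 95% intervals of fold changes are 1.96 SE. Single-library differences are in log2 CPM (prior count 2). Ratios have exact binomial (Clopper-Pearson) 95% intervals, which cover counting error only and no spread between cultures or libraries. They treat reads as independent, which reads without molecular identifiers need not be, so they may be too narrow. The floor of 3 counts was 0.573, 0.591 and 0.545 CPM. The length trend was a lowess fit per library, removed through offsets. Some genes are not reported here. All 10 ligand genes are named; from each related list, up to 4 genes each way with the largest change, if called and at a mean CPM of at least 5. Alternatives were other scalings and filters, DESeq2 1.42.0, limma 3.58.1 on log2(FPKM + 1) and log2(FPKM + 0.1), length and GC trends, and each labelled library alone.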

Additional observations from a re-analysis of the deposited data

How the results depend on the processing

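The count of ligand genes called lower, 4 as reported, was 4 with DESeq2 size factors, 4 with the length trend removed and 3 with length and GC trends removed. It was 2 with library totals only, 2 with no filter, 2 at a mean of 5 CPM or more, 2 with limma on log2(FPKM + 1), 1 with DESeq2, which gave LGALS9 no adjusted p, and 0 with limma on log2(FPKM + 0.1) or on unfiltered FPKM, where 2 ligand genes had an unadjusted p under 0.05. The count called higher was 0 in every one of these fits; no ligand gene other than the 4 and CD47 passed in any. Over all genes, where 2319 were higher and 2033 lower, the counts were 1048 and 849 with no filter, 746 and 456 with DESeq2, 1182 and 1263 with the length trend removed, 990 and 1067 with both trends removed, 516 and 477 with limma on log2(FPKM + 1), 1 and 23 with a pseudocount of 0.1 (4215 with an unadjusted p under 0.05), and 0 and 0 unfiltered (4576). Signs turned only among genes that missed the threshold: CD276 to -0.050 with the length trend removed and -0.11 on FPKM in all 3 limma fits, MICA to 0.23 with the length trend and 0.25 with both trends removed, PVR to 0.027 on FPKM with a pseudocount of 1, filtered or not, and 0.029 with 0.1, and ULBP2 to -0.28 when summed with its copies. The cause was not tested. Without library 1 or library 2 in turn there is 1 library against 1, so those are values with no test and give no counts of calls. No paired analysis was possible because there is 1 control library and no label pairs it with either labelled library. Depth limits PDCD1LG2 and ULBP2, at 5 to 26 counts a library.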
